A study of Mus musculus with 4 samples.

Results

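Regulators of G protein signalling (RGS proteins) were followed in mouse regulatory T (Treg) cells, grown from naive T cells, with and without Cre deletion of floxed Junb. The 8 members are Rgs1, Rgs2, Rgs3, Rgs16, Rgs18, Rgs10, Rgs14 and Rgs19, taken by the gene name printed in the scanner files. They are read by 17 of the 56605 probes on the array, and 7 of the 8 stand among the 22474 genes tested. Rgs18 was not well above background on any array.

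When a chemokine binds its receptor on a T cell, a heterotrimeric G protein exchanges GDP for GTP and its alpha and beta-gamma parts signal separately. RGS proteins speed the hydrolysis of that GTP by the alpha subunit and so end the signal. They are known in lymphocytes mainly for setting how strongly and how long cells answer chemokines.

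Cells came from Junbfl/flCd4-Cre mice and, as controls, from Junbfl/fl mice, both on the C57BL/6 strain, with 2 single-colour arrays per genotype. Both genotypes carry the floxed Junb alleles, and only the first carries Cre, driven by Cd4 regulatory sequence across the T lineage, so an effect of Cre itself and the loss of Junb cannot be told apart. Per the labels, naive CD4 T cells were sorted for high CD62L, low CD44 and no CD25 and then cultured for 3 days on plates coated with anti-CD3 at 1 μg/ml, with 0.5 μg/ml of anti-CD28, with 5 μg/ml each of blocking antibodies to IFN-γ and IL-4, and with human TGF-β1 at 5 ng/ml. No age is given. No label says that the 2 arrays of a genotype hold separate mice or cultures, so each p-value reflects array-to-array spread that could be technical.

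JunB belongs to the AP-1 family of transcription factors. The Junb probe in the coding region read 4.11 and 1.47 on the arrays labelled Junbfl/flCd4-Cre, not well above background, against 47.2 and 31.7 on the control arrays, at least 5.71-fold lower. A second, much brighter Junb probe toward the 3′ end read 1053 on the first and 10078 on the second array labelled Junbfl/flCd4-Cre, against 9791 and 9072 on the control arrays. The second of these arrays goes against its label by that probe, and the labels do not give which part of the gene is floxed. The genotypes are therefore named by their labels. One label names colon as the RNA source. Of 14 colon epithelium markers 7 were not above background on any array (Krt19, Krt20, Cdh1, Vil1, Cdx1, Muc2 and Fabp2), while none of 14 T cell identity genes was so. Of the other colon epithelium markers, Epcam, Krt18, Car1 and Lgals4 were above background on all 4 arrays, Lgals4 at 319.9 and 320.1 on the arrays labelled Junbfl/flCd4-Cre, against 269 and 393 on the controls. Slc26a3 was at least 8.44-fold higher, and the controls were not above background for it. Of 11 colon stroma markers 7 were tested. Col1a1 and Dcn were called higher, both not above background on the controls, and Acta2 read 1962 and 1730 on the arrays labelled Junbfl/flCd4-Cre, against 4275 and 3433 on the controls, while Col6a1, Lum and Cdh5 were not above background on any array. Slc26a3, Col1a1 and Dcn entered the test only through the arrays labelled Junbfl/flCd4-Cre, where they are high, which favours a call. With quantile normalization Slc26a3 was called (adjusted p = 0.0436 by limma), while Col1a1 (0.098) and Dcn (0.054) were not. The part of RNA from colon cells in the results was not tested. Across genes the arrays of a genotype correlated at 0.978 (labelled Junbfl/flCd4-Cre) and 0.982 (controls), and arrays of different genotypes at 0.933 to 0.955.

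Probes of 4 members are shown from the deposited scanner files, 5′ to 3′ in lower case with no base singled out. The values of Rgs1, Rgs2, Rgs3 and Rgs10 rest on the first probe named for each; of these, the first 30 of 60 bases are shown except for Rgs2, which lies in coding sequence and is shown whole. The second probes of Rgs3 and Rgs10 are shown because they read coding sequence: they span 678 and 14981 bases of the genome, so each crosses an exon junction. Positions are those of the files, on build mm9.
Rgs1 (chr1:146091962-146092021, minus strand): cccttggataaccagtccaaaagtatatag
Rgs2 (chr1:145848830-145848889, minus strand): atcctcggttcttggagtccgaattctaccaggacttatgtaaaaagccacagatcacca
Rgs3, brightest probe (chr4:62363993-62364052, plus strand): gccctctggccacacagaaatgagtgctga
Rgs3, second probe (chr4:62361410-62362087, plus strand): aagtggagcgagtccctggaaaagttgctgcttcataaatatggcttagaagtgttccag
Rgs10, brightest probe (chr7:135517256-135517315, minus strand): gaccttccctctggatatgtgtattttatt
Rgs10, second probe (chr7:135517532-135532512, minus strand): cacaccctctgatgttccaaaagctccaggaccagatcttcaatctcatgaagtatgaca

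Of the 8 RGS genes, Rgs1 fell in cells labelled Junbfl/flCd4-Cre and no other member passed the test. Rgs1 is known in T and B cells as a brake on chemokine-driven migration. Rgs1 read 253 and 508 as processed signal (background-subtracted intensity) on the arrays labelled Junbfl/flCd4-Cre, against 3388 and 3429 on the control arrays. Both arrays labelled Junbfl/flCd4-Cre were far below both controls, which were almost equal. After scaling, the first array labelled Junbfl/flCd4-Cre was 1.25 log2 units below the second (a log2 difference of -1.25). As a multiple of each array's 75th percentile over probes, the scale used for every test here, Rgs1 stood at 2.12 and 5.03 on the arrays labelled Junbfl/flCd4-Cre, against 22.4 and 23.7 on the controls. The log2 difference was -2.82 ± 0.47 (SE, n = 2 arrays per genotype), or 7.06-fold lower, with a 95% interval of 2.83 to 17.6-fold.

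The adjusted p of Rgs1 was 0.0499 (limma, Benjamini-Hochberg over all genes), just under the threshold of 0.05 used for a call. Of all genes tested 8.46% were called, 1.43% lower and 7.03% higher, so 1 of 7 members called is near the share of all genes. By size the decrease was the 53rd deepest among the 22474 genes, and among the 4495 brightest genes 6, Rgs1 included, had a difference as low or lower. In bulk RNA, fewer cells expressing Rgs1 and less Rgs1 RNA per cell cannot be told apart.

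Rgs1 rests on 1 probe and 2 arrays per genotype. The difference was -3.40 between the arrays numbered 1 and -2.24 between those numbered 2. Without the first array labelled Junbfl/flCd4-Cre Rgs1 was 4.58-fold lower (adjusted p = 0.125 by limma), and without the second it was 10.9-fold lower (adjusted p = 0.110). Without control 1 or control 2 it was 7.26-fold and 6.86-fold lower (adjusted p = 0.177 and 0.113). The call therefore needs all 4 arrays. So did the call of every other gene, and such fits leave a lone array in 1 genotype. Quantile normalization gave -2.57 (adjusted p = 0.0790) and normexp background with quantile normalization -2.40 (adjusted p = 0.0762), and the authors' deposited table lists -2.55 with an adjusted p of 0.0684. The first array labelled Junbfl/flCd4-Cre, where Rgs1 was lowest, is also the one on which the 3′ Junb probe was low, and its part in the result was not tested.

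Markers of other cells that could bring Rgs1 RNA were read beside it. Of 10 B cell markers, 7 were tested and all 7 had positive differences, with Ms4a1 (CD20) and Ebf1 called. With quantile normalization Ms4a1 stayed called, while Pax5 was negative and Ebf1 was not called (adjusted p = 0.110 by limma). B cell markers summed to 5.70 to 9.29, as multiples of the 75th percentile, on arrays labelled Junbfl/flCd4-Cre, against 1.75 to 4.92 on controls. Of the defining B cell genes Blk was not above background on any array. T cell identity genes summed to 925 to 1011, against 1117 to 1120 on the controls. Among 13 tested, Thy1 and Cd2 were called lower, by 0.98 and 1.33 on the log2 scale (1.43% of all genes were called lower). With quantile normalization neither Thy1 nor Cd2 was called (adjusted p = 0.0722 and 0.0849 by limma). Myeloid markers summed to 429 to 460, against 262 to 268 on the controls, with all 9 tested of 14 positive and none called by limma (2 at an unadjusted p under 0.05), most of the sum being Siglech; Adgre1, Fcgr1 and Clec9a were not above background on any array. Positive differences were also common among dim genes, with a median of 0.92 in the dimmest of 5 equal groups and 0.42 in the next. The brightest of these groups had a median of -0.36, and the tested T cell identity genes had a median of -0.15. The part of these marker shifts in the Rgs1 result was not tested.

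**Figure D1:**
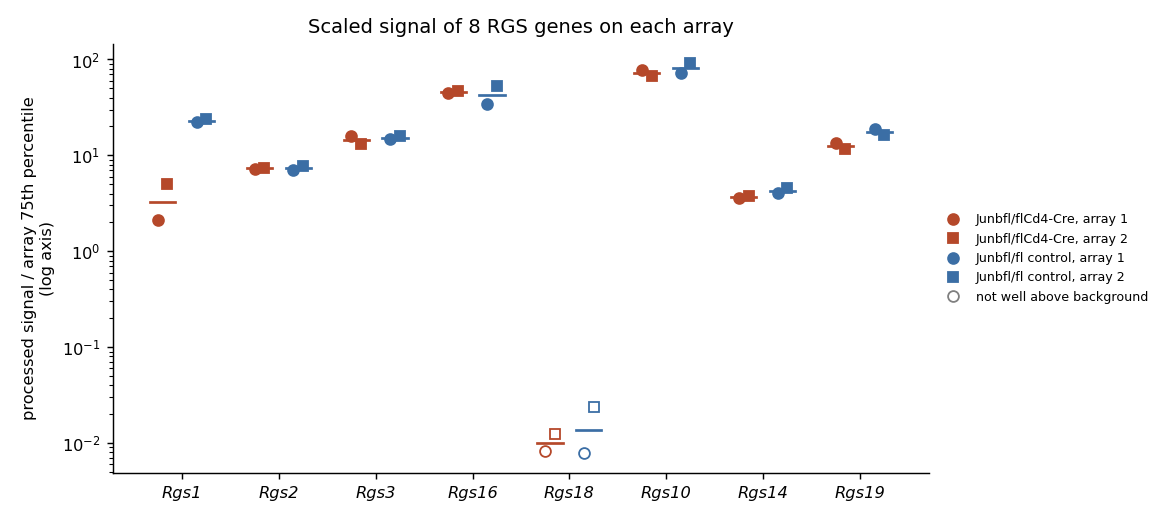
Signal of the 8 RGS genes on each array, as a multiple of the array's 75th percentile over probes (log axis), with Junbfl/flCd4-Cre arrays (red) left of Junbfl/fl arrays (blue). Bars are geometric means of 2 arrays and open symbols were not well above background; Rgs1 is at 2.12 and 5.03 against 22.4 and 23.7, and the other detected members lie close together. Levels of different genes come from different probes and cannot be set against each other.

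None of the other R4 members, most of them small proteins built around little more than the RGS domain, was called. Rgs2, which acts preferentially on Gq, read 853 and 752 on the arrays labelled Junbfl/flCd4-Cre, against 1067 and 1114 on the controls (processed signal), but after scaling stood at 7.15 and 7.44, against 7.06 and 7.70. The genotypes overlapped, and the log2 difference was -0.01 ± 0.15 with a 95% interval of -0.43 to 0.40 (adjusted p = 0.944 by limma). The arrays differed in overall signal, with 75th percentiles of 119 and 101 on the arrays labelled Junbfl/flCd4-Cre, against 151 and 145 on the controls. The second Rgs2 probe, drawn from transcript ENSMUST00000134817, was not well above background on any array.

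Rgs16, a member induced when T cells are activated, stood at 44.6 and 46.4 on the arrays labelled Junbfl/flCd4-Cre, against 34.2 and 53.4 on the controls (multiples of the 75th percentile). The controls lay on either side of both other arrays. Its log2 difference was 0.09 ± 0.27 (95% interval -0.67 to 0.85, adjusted p = 0.811 by limma).

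Rgs3, which is made in several forms of different length and acts on Gi and Gq, was read by 5 probes. The brightest stood at 15.9 and 13.1 on the arrays labelled Junbfl/flCd4-Cre, against 14.8 and 15.9 on the controls, with overlap and a log2 difference of -0.09 ± 0.18 (95% interval -0.59 to 0.41). The other 3 Rgs3 probes that passed the filter gave differences of -0.16, -0.01 and -0.00. The probe across the exon junction, printed above, gave the -0.16 and read 39.9 and 30.4 on the arrays labelled Junbfl/flCd4-Cre, against 54.2 and 51.1 on the controls (processed signal). The probe of transcript ENSMUST00000142684 was above background on 1 array of each genotype and was not tested. No form of Rgs3 read here was called.

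Rgs18, known from platelets and megakaryocytes, read 0.978 and 1.26 on the arrays labelled Junbfl/flCd4-Cre, against 1.18 and 3.42 on the controls (processed signal), not well above background on any array, so no fold is given. The platelet genes Pf4, Ppbp, Itga2b and Gp1ba were likewise not above background on any array.

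The R12 members are Rgs10, a short protein with an RGS domain and little else, and Rgs14, which adds Ras-binding domains and a GoLoco motif that holds Gi in its GDP form. Rgs10 stood at 77.6 and 67.7 on the arrays labelled Junbfl/flCd4-Cre, against 71.7 and 90.8 on the controls. The genotypes overlapped, and the log2 difference was -0.15 ± 0.20 (95% interval -0.71 to 0.40, adjusted p = 0.569 by limma). The coding probe of Rgs10 printed above gave -0.15 too. Another probe, for transcript ENSMUST00000145739, gave 0.60 ± 0.22 without overlap (adjusted p = 0.130 over all probes by limma), at scaled signals of 0.109 and 0.102 on the arrays labelled Junbfl/flCd4-Cre, against 0.0591 and 0.0810 on the controls. That last probe is dim on all 4 arrays and disagrees in sign with the other 2, so the direction of its transcript is uncertain.

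Rgs14 stood at 3.55 and 3.76 on the arrays labelled Junbfl/flCd4-Cre, against 4.03 and 4.56 on the controls. Both were below both controls, by a log2 difference of -0.23 ± 0.15 (95% interval -0.67 to 0.20) that did not pass (adjusted p = 0.309 by limma).

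Rgs19, of the RZ group whose members carry a string of cysteines and act on Gi, was read by 3 probes lying close together. The brightest stood at 13.4 and 11.8 on the arrays labelled Junbfl/flCd4-Cre, against 19.0 and 16.3 on the controls. The genotypes did not overlap, and the log2 difference was -0.49 ± 0.17 (95% interval -0.97 to -0.00 before adjustment). It did not pass after adjustment (adjusted p = 0.120 by limma). The other 2 probes gave -0.53 and -0.54, and no probe was called (adjusted p = 0.107 to 0.131 over all probes). The 4495 brightest genes, Rgs19 among them, had a median difference of -0.36 with quartiles of -0.61 and -0.06, and the value of Rgs19 lies between those quartiles.

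Over the 7 members tested, the median log2 difference was -0.15, against 0.01 over all genes, and 6 of 7 were negative, against 49.5% of all genes. All 7 belong to the brighter genes, whose median differences were -0.36 in the brightest of 5 equal groups and -0.27 in the next, so the members' median was not lower than that of genes of like brightness. Apart from Rgs1, all lay within 0.5 of 0. The genotypes did not overlap in 3 members (Rgs1, Rgs14 and Rgs19), all lower, against 75.1% of all genes (38.5% lower and 36.6% higher). By probe, 1 of the 14 that passed the filter was called, against 6.78% of all probes (1.25% lower). All 7 tested members were above background on all 4 arrays by the probe used, so none entered through 1 genotype alone.

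**Figure D2:**
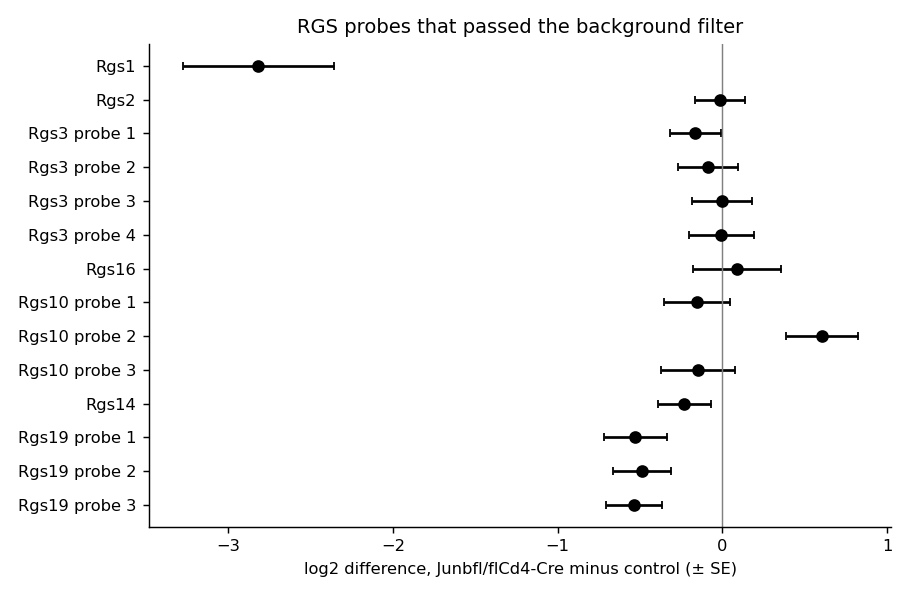
Log2 difference (Junbfl/flCd4-Cre minus Junbfl/fl, ± SE of the limma fit, 2 arrays per genotype) for the 14 RGS probes that passed the background filter, with probes of a gene in the order of their identifiers. Rgs1 is at -2.82, the 3 Rgs19 probes lie together between -0.54 and -0.49, and the dim Rgs10 probe is at 0.60.

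The sign of the small differences depended on the scaling. Scaling to the median shifted the median of all genes to -0.52, and then all 7 members were negative and 3 were called (Rgs1, Rgs14 and Rgs19), when 41.9% of all genes were called. With quantile normalization 3 of 7 members were negative and with normexp background 2 of 7. Rgs2, Rgs3 and Rgs10 changed sign between these settings, and Rgs14 did so only with normexp (0.01). Over these 3 settings Rgs16 was positive except with the median (-0.44), and Rgs1 and Rgs19 were negative in all of them. Relative to the median of all genes, Rgs1 lay between -3.05 and -2.40 over the reported setting and 9 alternatives.

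**Figure D3:**
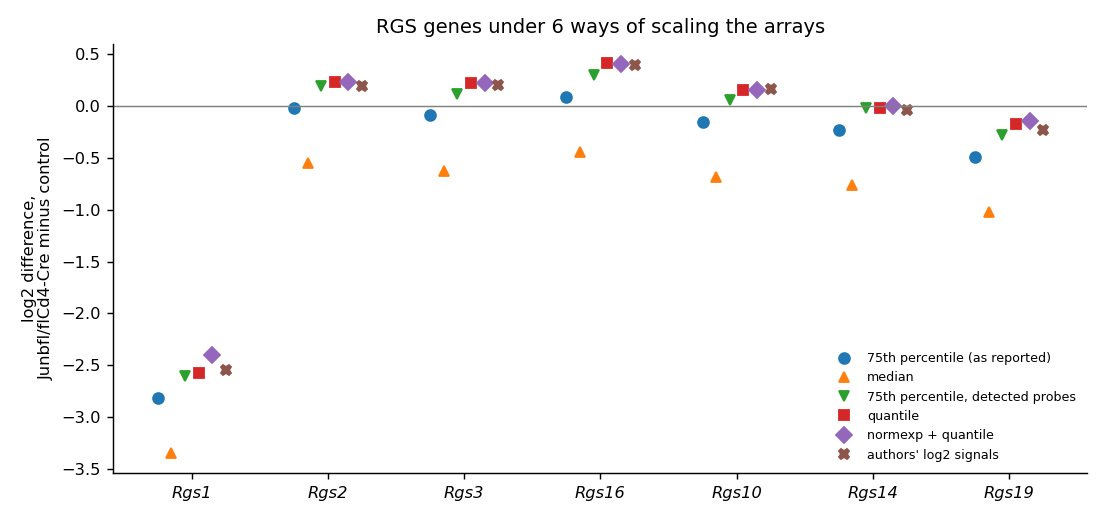
Log2 difference (Junbfl/flCd4-Cre minus Junbfl/fl) of the 7 tested RGS genes under 6 ways of scaling the arrays, each symbol a setting. Rgs1 stays between -3.35 and -2.40, while Rgs2, Rgs3 and Rgs10 lie on both sides of 0.

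Rgs1 sits on mouse chromosome 1 in a cluster with other R4 genes, and a window of 1000 kb on each side of its probe, chosen after values were seen, held 11 probe-named genes or transcripts, of which 7 were tested. Rgs1 was the only 1 of the 7 called. Rgs2, 243 kb away, gave the -0.01 described above. Rgs13, 105 kb away, Rgs21 at 275 kb and Rgs18 at 508 kb were not well above background on any array. Uchl5 (438 kb), a proteasome-bound deubiquitinase, gave -1.01 ± 0.24 (adjusted p = 0.0743 by limma) and Cdc73 (637 kb), a subunit of the Paf1 transcription complex, -0.49 ± 0.24. Glrx2 (495 kb), a mitochondrial glutaredoxin, read nearly the same on all arrays before scaling, at 116603 and 119702 on the arrays labelled Junbfl/flCd4-Cre, against 117784 and 116128 on the controls. Its difference of 0.44 appears only after scaling, and what it reflects was not tested.

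**Figure D4:**
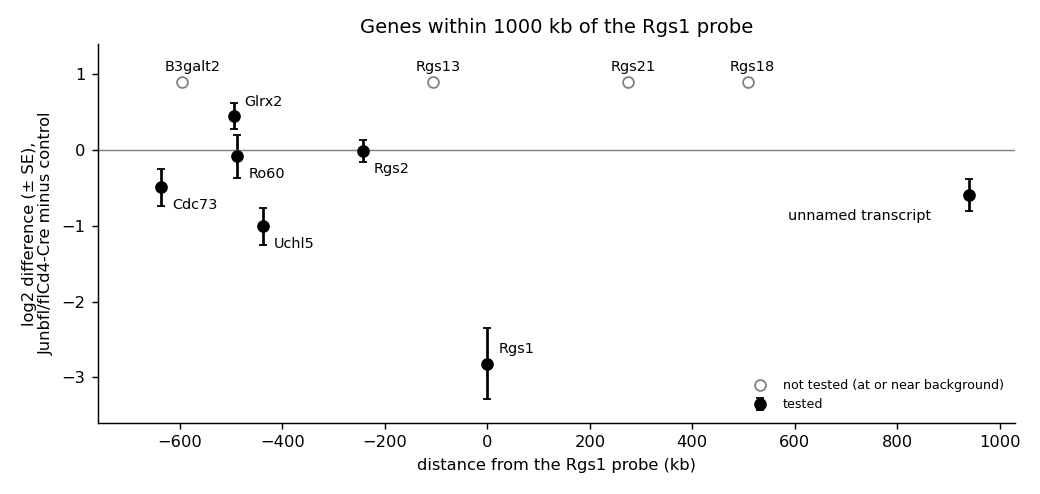
Log2 difference (Junbfl/flCd4-Cre minus Junbfl/fl, ± SE) of genes within 1000 kb of the Rgs1 probe against the distance of their probes from it in kb, on mm9. Open symbols at the top mark genes that were not tested and carry no value; Rgs1 at -2.82 stands below its tested neighbours, which lie between -1.01 and 0.44.

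The genes whose 4 log2 signals, centred on their own mean, lay nearest to those of Rgs1 by Euclidean distance included Lta (0.22 over 4 arrays). Lta encodes lymphotoxin, a cytokine of activated lymphocytes, and read 604 and 1070 on the arrays labelled Junbfl/flCd4-Cre, against 7859 and 6781 on the controls. Uaca was also near, but was not well above background on either array labelled Junbfl/flCd4-Cre, so its distance rests partly on background and is not given. With 4 arrays a near match is a description only.

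RefSeq promoter windows (GRCm38.p6, 250 bases before to 50 after a gene's start) were held for 5 members in 8 windows, not for Rgs1, Rgs14 or Rgs18. None of the 8 contained TGANTCA, the AP-1 site, or TGACGTCA, the CRE site, each its own reverse complement. Over all 32851 windows 7.81% held the first and 1.79% the second.

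Among 15 other RGS family genes, including the RGS-binding proteins Rgs7bp and Rgs9bp, 8 were tested. Rgs17, an RZ relative of Rgs19, was the only 1 called, and it passed the background filter only through the arrays labelled Junbfl/flCd4-Cre, where it is high. It read 36.4 and 16.8 on the arrays labelled Junbfl/flCd4-Cre, against 4.84 and 6.29, not well above background, on the controls. It was at least 5.73-fold higher (adjusted p = 0.0426 by limma), a call that this filter favours: with all 4 arrays required above background 0 genes of the list were called. Rgs17 was not called with quantile normalization (adjusted p = 0.0790), and with normexp background its log2 difference was 0.35 (adjusted p = 0.152). Rgs5, Rgs9bp, Rgs13, Rgs21 and Rgs22 were not above background on any array.

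The substrates of RGS proteins are the G protein alpha subunits. Of 13 listed, 10 were tested, with a median difference of -0.24, and 1 was called. Gnaq, the alpha subunit that activates phospholipase C-beta and a target of Rgs2, read 45.3 and 39.4 on the arrays labelled Junbfl/flCd4-Cre, against 109 and 109 on the controls. It fell by 0.94 ± 0.14 on the log2 scale (adjusted p = 0.0446 by limma), though with quantile normalization it gave -1.05 and missed the threshold (adjusted p = 0.0536). Gnai1 and Gnaz were not above background on any array.

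No beta or gamma subunit was called among 11 tested by limma, with 6 at an unadjusted p under 0.05 (41.4% of all genes were), and 10 of 11 were negative (median -0.70). With median scaling 8 were called, when 41.9% of all genes were. With the replicate block 4 were called, when 6848 of the 22474 genes were. With quantile normalization and with normexp background 0 were called. Gnb1 gave -0.70 ± 0.15 (adjusted p = 0.0665) and Gng2, a gamma subunit, -1.51 ± 0.38 (adjusted p = 0.0785); the other of its 2 probes gave -2.00 and was called over all probes. Of 6 receptor kinase and arrestin genes none was called, with 3 at an unadjusted p under 0.05. The arrestin Arrb2 gave -0.79 ± 0.15 (adjusted p = 0.0569) and the receptor kinase Grk6 gave -0.55 ± 0.15 (adjusted p = 0.0856). The other arrestin, Arrb1, gave 0.53 ± 0.17 (adjusted p = 0.106 by limma). In this list 3 genes were negative and 3 positive, with a median of 0.085. Of 6 other modulators none was called, with 1 at an unadjusted p under 0.05. Gpsm2, a GoLoco protein of spindle orientation, gave -1.15 ± 0.32 (adjusted p = 0.0863), and Akap13, a protein kinase A anchoring protein, gave -0.38 ± 0.18 (adjusted p = 0.193).

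Upstream, 21 of 27 leukocyte receptors were tested, most of them Gi-coupled (Ptger4 and Adora2a couple to Gs). The receptors went both ways, with 1 called lower and 2 higher. Ccr4, the receptor of Ccl17 and Ccl22, read 34.2 and 23.7 on the arrays labelled Junbfl/flCd4-Cre, against 536 and 313 on the controls, and fell by 3.42 ± 0.31 (adjusted p = 0.0297 by limma). Cxcr4, the receptor of Cxcl12, read 349 and 205, against 97.5 and 104 on the controls, and rose by 1.84 ± 0.24 (adjusted p = 0.0376 by limma). Gpr183 (EBI2), which follows oxysterols, read 108 and 115, against 57.6 and 56.3 on the controls, and also rose (adjusted p = 0.0379 by limma). With quantile normalization the limma calls of Cxcr4 and Gpr183 ended (adjusted p = 0.0554 and 0.0592), and that of Ccr4 remained (0.0448).

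Of 14 chemokine ligands 8 were tested, and the 2 called went opposite ways. Ccl20, which binds Ccr6, read 21.3 and 31.6 on the arrays labelled Junbfl/flCd4-Cre, against 732 and 1532 on the controls, and fell by 4.92 ± 0.52 (adjusted p = 0.0321 by limma). Ccl1, which binds Ccr8, read 2276 and 3037, against 248 and 476 on the controls, and rose by 3.37 ± 0.45 (adjusted p = 0.0387 by limma). Its second probe gave 1.85. With quantile normalization neither ligand was called by limma (adjusted p = 0.0504 for Ccl20 and 0.0536 for Ccl1). Among 15 downstream effectors tested of 16, Adcy6 and Adcy9, adenylyl cyclases that make cyclic AMP, were called in opposite directions. Adcy6 read 1340 and 1184 on the arrays labelled Junbfl/flCd4-Cre, against 235 and 262 on the controls, and rose by 2.77 ± 0.16 (adjusted p = 0.0290 by limma). Adcy9 read 47.4 and 39.6, against 135 and 107 on the controls, and fell by 1.04 ± 0.17 (adjusted p = 0.0484, and 0.0611 with quantile normalization). Adcy6 was also called after normexp background with quantile normalization (log2 difference 2.64).

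Over these 7 lists outside the RGS family, 8 of 77 tested genes were called, 4 lower and 4 higher, against 8.46% of all genes. With median scaling 38 of the 77 were called by limma, when 41.9% of all genes were. With the replicate block 24 were called, when 6848 of all 22474 genes were. Quantile normalization left 2 called, against 452 over all genes, and normexp background left 1, against 319. Without a filter 0 were called, in these lists and over all genes.

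**Figure D5:**
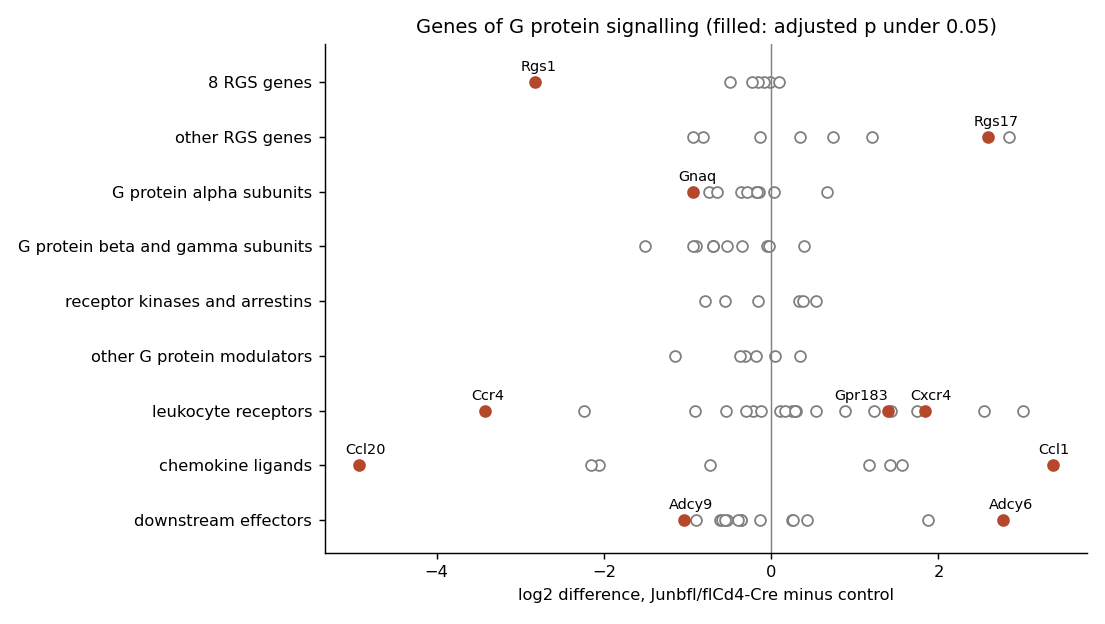
Log2 difference (Junbfl/flCd4-Cre minus Junbfl/fl) of tested genes in the 8 RGS genes and 8 lists of G protein signalling, each circle a gene, filled and named where the adjusted p was under 0.05. Rgs1 (-2.82), Ccr4 (-3.42) and Ccl20 (-4.92) lie at the low end, and Rgs17, Adcy6 and Ccl1 at the high end.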

How the data were processed

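The authors' scans were read with Agilent Feature Extraction 11.5.1.1, per the file headers, which gave each spot's processed intensity (after background subtraction and spatial detrending), its mean and local background intensity, and background flags. The authors' deposited table holds log2 signals per accession, log2 differences and p-values; the sources used here do not give how these were made. All 4 arrays lie on 1 slide with 1 scan. Non-control spots flagged as uneven or outlying (108 to 215 per array) were left out, spots of a probe were averaged, and 56310 probes with a usable spot on every array were kept. Names came from the files, updated through RefSeq (GRCm38.p6, names only). Well above background were 59.3% to 66.3% of spots, and none was saturated. The number of arrays limits the precision.

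The log2 processed signal minus the array's 75th percentile was tested with limma 3.58.1 (R 4.3.3), without covariates. A probe entered if either genotype had it well above background on both its arrays, and a gene was its brightest such probe. Bounds ("at least") use the lowest signal well above background per array. The fit was tested on simulated data with independent noise on each array. In the real data deviations of same-numbered arrays were correlated across genes, so the simulation cannot show how the fit behaves there. Figures used matplotlib 3.10.9. Members, lists and tests were chosen with earlier results of these data known. Named were all members, called genes of each list or otherwise the 2 with the smallest p, and the 2 nearest profiles of a called member. Alternatives were other scalings, background correction, filters, probe averaging, the authors' signals, a replicate block and leaving out each array. Proteins were not analysed here.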

Additional observations from a re-analysis of the deposited data

How the results depend on the processing

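Rgs1 was lower under all 9 alternatives that kept every array, from -3.35 to -2.40, and passed in 5 of them, with adjusted p from 0.0186 to 0.108. The count of RGS members called was 1 as reported, 3 with median scaling and 0 with quantile normalization, with normexp background, without a filter and with the authors' log2 signals; by probe it was 1, 5 with median scaling and 0 with quantile normalization, normexp background or no filter. Leaving out any 1 array gave 0 called genes, 0 called members and 0 called probes (limma, 4953 to 8139 genes at an unadjusted p under 0.05); the fit then takes the lone array to vary like the others. Over all genes 1901 were called, 9414 with median scaling (21% higher, against 83.1% as reported), 452 with quantile normalization, 319 with normexp background, 618 with the authors' log2 signals, 1259 when all 4 arrays had to be above background and 0 without a filter (8825 at an unadjusted p under 0.05). With the replicate block (the number in the title, which only names the samples; deviations of same-numbered arrays correlated at 0.498 across genes) 6848 genes and again 1 member, Rgs1, were called. The slide could not serve as a block, since all arrays share it. The cause of these changes was not tested, except that fewer arrays leave less to estimate the spread. Rgs18 and the dim probes limit what can be said of genes near background.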

Other observations

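Among the other RGS genes, chosen here after their values were seen, 3 were bright on a single array. Rgs6 read 132 and 10.8 on the arrays labelled Junbfl/flCd4-Cre, against 6.45 and 7.82 on the controls. Rgs4 read 0.947 and 1.35, against 41.1 and 1.44 on the controls, and Rgs7 read 1.78 and 1.22, against 1.09 and 24.7. Each value comes from 1 array and was not repeated on the other array of its genotype. Rgs12, a large relative of Rgs14, read 196 and 173 on the arrays labelled Junbfl/flCd4-Cre, against 366 and 614 on the controls. Its log2 difference was -0.93 ± 0.32 (adjusted p = 0.115 by limma). By limma the adjusted p was 0.0350 with median scaling, which called 41.9% of all genes, and 0.197 with quantile normalization. The 3 probes tested for Rgs12 disagreed in sign (-0.93 to 0.45), and none was called over all probes. Rgs9 stood at 0.540 and 0.594 times the 75th percentile on the arrays labelled Junbfl/flCd4-Cre, against 0.322 and 0.186 on the controls. Its log2 difference was 1.21 ± 0.32 (adjusted p = 0.0808 by limma). The 5 probes tested for it disagreed in sign (-1.11 to 1.21), and 1 of them was called over all probes.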
